A study of Drosophila melanogaster with 9 samples.

Results

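The 96 genes described here code for, or are named for, the protein subunits of the 2 ribosomes of the fly cell, 32 for the cytosolic ribosome (symbols RpL, RpS and RpLP) and 64 for the mitochondrial ribosome (mRpL and mRpS). They were taken by gene symbol from 10844 genes that had a probe set carrying a single symbol, with the brightest probe set standing for each gene. The germline copies RpL22-like, RpL37-2, RpS5b, RpL10Aa and RpS28a were left out. The current gene table holds 87 cytosolic and 73 mitochondrial symbols of these forms, so the mitochondrial class was nearly complete and the cytosolic class was a sample of its complex. Of the cytosolic members 19 belonged to the large and 13 to the small subunit by symbol, and of the mitochondrial members 43 and 21. All 96 passed the filter on dim probe sets, which used the mean over all 9 arrays without regard to group. A gene dim on control arrays could therefore pass through its signal on the mutant arrays. This held for mRpL54 and mRpL20, with control means of 9.2 and 13.8, where the lowest mean among tested probe sets was 15.1.

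Expression had been measured in hand-dissected testes of adult Drosophila melanogaster males on 9 Affymetrix arrays, 3 for each of 3 genotypes, with flies reared at 25 °C and dissected at 0 to 1 day of adult age. By title and genotype the first group carried comr[z1340] with cn[1] and bw[1], whereas its source name gives aly[5] and its description aly. The labels therefore do not settle its mutated gene, and it is called labelled comr. The can males carried can[3] with red[1] and e[1] on a w background, and the control males red[1] and e[1], markers that the labelled comr genotype does not name. Each mutant group is 1 allele. The labels do not say whether replicates were dissected separately, and a p-value here therefore reflects the spread among arrays alone, which may be technical.

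A ribosome is built from ribosomal RNA and ribosomal proteins, and cells that grow make both in large amounts. The cytosolic ribosome translates the messages of nuclear genes, whereas the mitochondrial ribosome translates the few respiratory chain proteins that the mitochondrial genome encodes, although its own proteins are made from nuclear genes. In the fly testis, spermatogonia divide, primary spermatocytes grow for days, and after meiosis the spermatids remodel their fused mitochondria along the growing tail. The genes comr and aly code for subunits of a testis meiotic arrest complex and can for a testis form of a general transcription factor subunit, and males mutant for any of them hold spermatocytes that do not enter the meiotic divisions.

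On the deposited scale every array had a trimmed mean signal of 100, and the highest of 23 control probe sets without a spiked target, 20.3, served as the floor of detection. The summed signal of 9 spermatid and sperm markers was 3565 to 4272 on labelled comr arrays, 4045 to 4713 on can arrays and 17498 to 17960 on control arrays, with 7 of the 9 (dj, djl, Mst77F, ProtB, w-cup, c-cup and sunz) at or under the floor on all labelled comr arrays and 1 (ProtB) on all can arrays. The summed signal of 6 early germline markers was 982 to 993 on labelled comr, 488 to 595 on can and 257 to 282 on control arrays, where bam and tej were under the floor. Sums of 7 haemocyte markers were 591 to 669 on labelled comr, 406 to 477 on can and 177 to 303 on control arrays, with NimC1 and eater at or under the floor in every group. Sums of 5 muscle markers were 723 to 933 on labelled comr, 685 to 775 on can and 449 to 536 on control arrays, with Act88F and TpnC41C at or under the floor in every group, and the 3 that were tested passed the adjusted p as higher in both mutants. Sums of 5 spermatocyte markers were 1666 to 1705 on labelled comr, 1901 to 2044 on can and 4461 to 4770 on control arrays, and 2 of the 5 were called higher and 2 lower in each mutant. Sums of 7 somatic cyst and hub markers were 218 to 228 on labelled comr, 271 to 277 on can and 205 to 225 on control arrays, with tj and upd1 at or under the floor in every group. In bulk tissue fewer cells of a type and less RNA per cell cannot be told apart, and the part of these shifts in the values below was not tested. Accessory gland markers varied within groups, with sums of 47.3 to 1729 on labelled comr, 111 to 3589 on can and 608 to 4112 on control arrays, and leaving out the array with most of that signal in each group moved no count against control given below by over 1.5 times. The ratio of 3′ to 5′ GAPDH probe sets, a sign of RNA or labelling quality, was 5.99 ± 0.63 on labelled comr arrays, 5.52 ± 1.33 on can arrays and 2.59 ± 0.29 on control arrays (SD, n = 3 each), and its part in the comparisons was not tested. The same ratio for actin was 2.43 ± 0.16 on labelled comr, 2.57 ± 0.26 on can and 2.62 ± 0.09 on control arrays, and for eIF-4a 6.76 ± 0.87 on labelled comr, 3.83 ± 0.49 on can and 5.22 ± 0.29 on control arrays.

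The mutated genes themselves were checked first. The comr probe set read 34.7, 30 and 35.7 on labelled comr arrays, 68.7, 49.1 and 56.6 on can arrays, and 13.9, 14.2 and 23.8 on control arrays. Its signal was not lower on the arrays labelled comr than on control arrays. The can probe set read 174.7, 165.4 and 149.0 on labelled comr arrays, 41.4, 27.1 and 45.4 on can arrays, and 25.3, 28.1 and 41.9 on control arrays, and the can and control arrays overlapped. The aly probe set read 526.9, 551.2 and 558.8 on labelled comr arrays, 165.1, 174.2 and 187.7 on can arrays, and 79.8, 89.5 and 89.6 on control arrays, so it too was higher on labelled comr than on control arrays. The sources used here do not give the place of these probe sets relative to the mutations, and the transcripts neither settle the label of the first group nor check the can allele.

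Both classes of ribosomal protein genes were brighter in both mutants than in control testes, and on the deposited scale the 2 mutants ranked in opposite order in the 2 classes. The median signal over the 32 cytosolic genes was 1862, 1929 and 2007 on labelled comr arrays, 2276, 2189 and 2099 on can arrays, and 786, 840 and 902 on control arrays. That of the 64 mitochondrial genes was 233, 240 and 244 on labelled comr arrays, 207, 207 and 176 on can arrays, and 78.0, 75 and 77.9 on control arrays. No mutant array overlapped a control array in either class, and every can array stood above every labelled comr array in the cytosolic class and below every one in the mitochondrial class. The cytosolic genes together took 3.05% ± 0.11 of all signal on labelled comr arrays, 3.50% ± 0.20 on can arrays and 1.403% ± 0.06 on control arrays, and the mitochondrial genes 1.05% ± 0.03 on labelled comr, 0.887% ± 0.030 on can and 0.366% ± 0.011 on control arrays (SD, n = 3 each). The difference between the class medians within an array is not touched by centring that array's log2 values on any level. It was 2.92, 2.92 and 2.96 on the log2 scale of signal plus 16 on labelled comr arrays, 3.37, 3.31 and 3.46 on can arrays, and 3.09, 3.23 and 3.29 on control arrays. The 3 groups did not overlap in this measure, with labelled comr lowest and can highest. The measure is a description over the members and carries no test. It was taken on the deposited scale with an offset of 16 only. A related measure is the cytosolic minus the mitochondrial median change against control. In labelled comr that was -0.31, and 0.225 with quantile normalisation. In can it was 0.04, and -0.055 with an offset of 1.

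**Figure D1:**
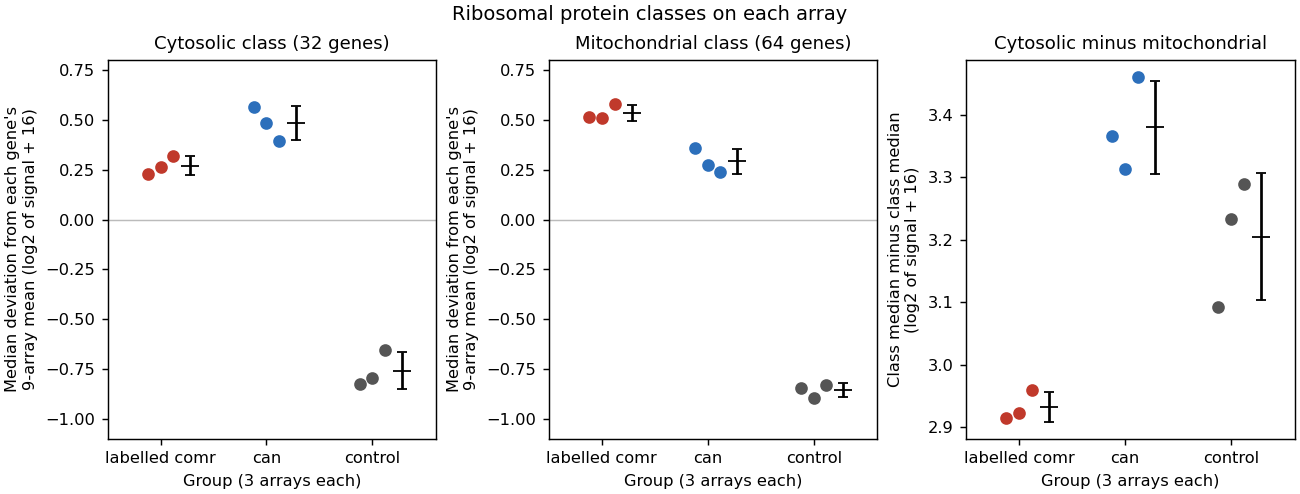
Each point is 1 array, with the mean and SD of the 3 arrays of a group beside it. The left and middle panels give the median over the genes of a class of the deviation from each gene's mean over the 9 arrays (log2 of signal plus 16), and the right panel gives the cytosolic minus the mitochondrial class median on each array. Both mutants lie above control in both classes, can is the higher mutant in the cytosolic class and labelled comr in the mitochondrial class, and the right panel shows labelled comr lowest, at 2.92 to 2.96, and can highest, at 3.31 to 3.46.

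Cytosolic ribosomal protein genes were then compared gene by gene. A gene was called when limma's adjusted p was under 0.05 over all 9778 tested probe sets and the change on the log2(signal + 16) scale was at least 2-fold. In labelled comr testes 16 of 32 were called higher (50%) and 0 lower, where over all tested probe sets 28.9% were called higher and 16.7% lower. In can testes 26 of 32 were called higher (81.3%) and 0 lower, against 20.7% higher and 13.0% lower over all tested probe sets. All 32 passed the adjusted p as higher in both comparisons. By that rule 50.5% of all tested probe sets were higher and 28.9% lower in labelled comr, and 47.2% and 23.9% in can. The 3 mutant arrays lay above the 3 control arrays for all 32 genes in both. Over all tested probe sets such a gap was found upward for 50.9% and downward for 29.9% in labelled comr, and for 48.0% and 24.7% in can. The median log2 change of the class was 1.01 in labelled comr (0.28 to 2.00) and 1.204 in can (0.50 to 1.77), where the medians over all tested probe sets were 0.35 in labelled comr and 0.29 in can. The comparisons share the 3 control arrays. Counts near the 2-fold line moved with the scaling, to between 10 and 29 in labelled comr and between 15 and 29 in can. The class median was 0.82 or more in both mutants under every scaling tried. The median over all tested probe sets moved too, to between 0.16 and 0.67 in labelled comr and between 0.03 and 0.37 in can. The share of all probe sets called under each scaling is not given here.

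**Figure D2:**
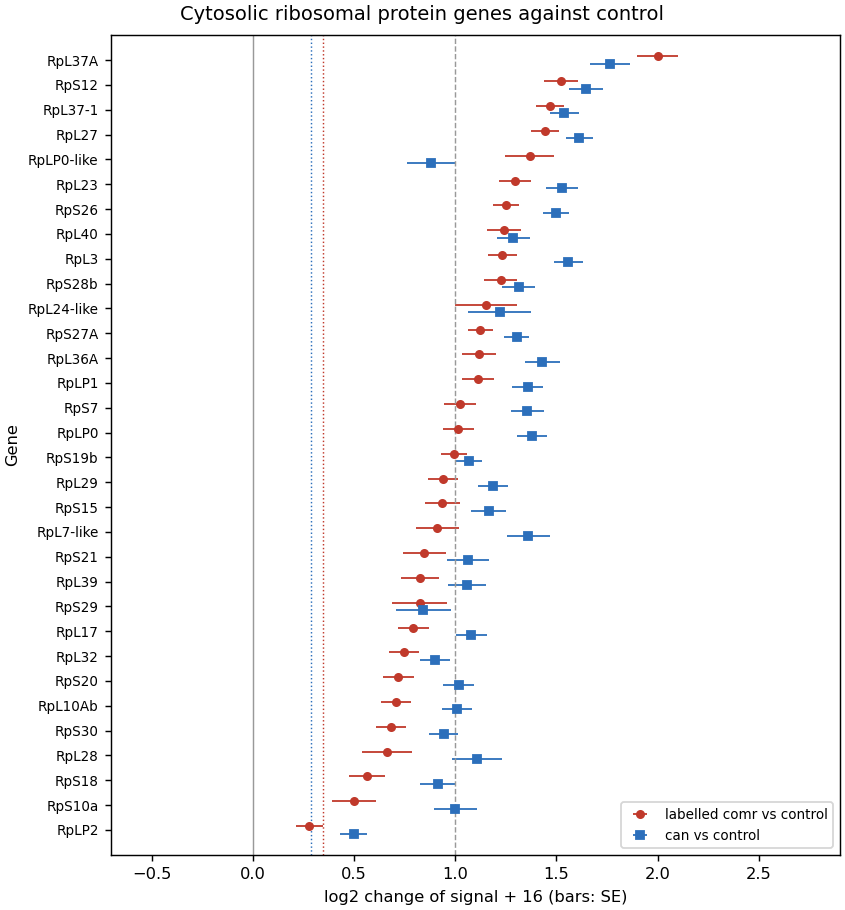
Each row is 1 of the 32 cytosolic ribosomal protein genes, ordered by its change in labelled comr, with the log2 change of signal plus 16 against control on the x axis and bars of 1 standard error. Circles are labelled comr and squares are can, the solid line is no change, the dashed line is 2-fold, and the dotted lines are the medians over all tested probe sets, 0.35 for labelled comr and 0.29 for can. All genes lie right of 0 in both mutants, from RpLP2 at 0.28 in labelled comr and 0.50 in can to RpL37A at 2.00 in labelled comr and 1.77 in can.

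RpL37A, a small zinc-binding protein of the large subunit, rose most in both mutants. Its signal was 2097.3, 2247.9 and 2539.5 on labelled comr arrays, 1740.7, 2119.4 and 1977.8 on can arrays, and 497.6, 623.7 and 563.6 on control arrays. All mutant arrays lay above all control arrays, and the log2 change was 2.00 ± 0.10 (SE, adjusted p = 1.77e-09) in labelled comr and 1.77 ± 0.10 (SE, adjusted p = 1.08e-08) in can. RpS12, a small subunit protein known in the fly for its part in competition between cells with unequal ribosome numbers, came next in both. It had 1811.9, 1929.2 and 2095.6 on labelled comr arrays, 2256.7, 2124.3 and 1975.0 on can arrays, and 603.4, 684.2 and 712.4 on control arrays. Its log2 change was 1.52 ± 0.082 (SE, adjusted p = 3.38e-09) in labelled comr and 1.65 ± 0.082 (SE, adjusted p = 3.45e-09) in can. RpL37-1, the copy of RpL37 kept among the members, changed by 1.47 in labelled comr and 1.54 in can on the log2 scale, and RpL27, a large subunit protein, by 1.44 in labelled comr and 1.61 in can. RpL3, a core protein next to the peptidyl transferase centre, changed by 1.23 in labelled comr and 1.56 in can.

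The acidic stalk of the large subunit, which recruits the elongation factors, holds RpLP0, RpLP1 and RpLP2, and the changes of these 3 genes differed in size. RpLP2 changed least of all cytosolic genes. It read 1859.5, 1981.2 and 1824.3 on labelled comr arrays, 2295.4, 2175.8 and 2129.3 on can arrays, and 1448.2, 1574.6 and 1640.8 on control arrays. The groups did not overlap, yet the log2 change was 0.28 ± 0.066 (SE, adjusted p = 0.00194) in labelled comr and 0.50 ± 0.066 (SE, adjusted p = 2.28e-05) in can, both short of 2-fold. RpLP0, the base of the stalk, changed by 1.02 in labelled comr and 1.38 in can, and RpLP1, the partner of RpLP2, by 1.11 in labelled comr and 1.36 in can. Each of these was called higher in both mutants.

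Genes that join a ribosomal protein to ubiquitin rose with the rest, RpL40 by 1.24 in labelled comr and 1.29 in can and RpS27A by 1.12 in labelled comr and 1.30 in can. RpS30, which is joined to a ubiquitin-like protein, changed by 0.68 in labelled comr and 0.94 in can and was not called in either mutant. RpS20, RpS7 and RpS30 were the brightest cytosolic members. RpS20 read 2866.0, 3049.1 and 3291.0 on labelled comr arrays, 4056.1, 3812.2 and 3473.9 on can arrays, and 1872.0, 1744.3 and 1955.6 on control arrays, and its log2 change was 0.72 ± 0.076 (SE, adjusted p = 2.2e-06) in labelled comr and 1.02 ± 0.076 (SE, adjusted p = 1.17e-07) in can. RpS7 changed by 1.02 in labelled comr and 1.36 in can. Neither RpS18 (0.56 in labelled comr and 0.91 in can), nor RpL32 (0.75 in labelled comr and 0.90 in can), nor RpS29 (0.82 in labelled comr and 0.84 in can) reached 2-fold on the log2(signal + 16) scale in either mutant, although all passed the adjusted p. RpS29 was the dimmest cytosolic probe set, at 51.5 to 65.1 on labelled comr arrays, 50.8 to 69.2 on can arrays and 23.1 to 31.0 on control arrays, next to the floor. The offset of 16 makes a change this close to the floor look smaller. As a plain ratio of mean signals RpS29 was 2.23-fold higher in labelled comr and 2.27-fold higher in can.

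RpL24-like, RpL7-like and RpLP0-like are named for ribosomal proteins, but their yeast counterparts act in the assembly of the large subunit and leave it before it is mature. Their probe sets were far dimmer than most of the class. RpL24-like averaged 189 ± 24 on labelled comr, 201 ± 47 on can and 76.3 ± 11.0 on control arrays (SD, n = 3 each), and its log2 changes were 1.15 in labelled comr and 1.22 in can. RpL7-like averaged 133 ± 4 on labelled comr, 188 ± 10 on can and 63.7 ± 10.3 on control arrays, with changes of 0.91 in labelled comr and 1.36 in can. RpLP0-like averaged 160 ± 9 on labelled comr, 110 ± 13 on can and 52.4 ± 9.4 on control arrays, with changes of 1.37 in labelled comr and 0.88 in can. Without these 3 genes 14 of 29 cytosolic genes were called higher in labelled comr and 24 of 29 in can.

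Several fly ribosomal proteins have a second gene copy, and some copies are used mainly in germ cells. RpS10a, from a pair with RpS10b, changed by 0.50 in labelled comr and 1.00 in can, and RpS19b, from a pair with RpS19a, by 1.00 in labelled comr and 1.07 in can; each was called higher in can, RpS10a at the 2-fold line. RpL10Ab, whose partner RpL10Aa is one of the left-out germline copies, averaged 2372 ± 218 on labelled comr, 2923 ± 148 on can and 1443 ± 69 on control arrays, and RpS28b, the partner of RpS28a, 2026 ± 91 on labelled comr, 2155 ± 60 on can and 861 ± 98 on control arrays (SD, n = 3 each). The left-out partners of these genes, RpL10Aa and RpS28a, moved the other way. RpL10Aa read 0.2, 0.3 and 1.6 on labelled comr arrays and 60.6, 56.4 and 65.1 on can arrays, against 766.4, 748.0 and 747.3 on control arrays, and RpS28a was likewise called lower in both. The other left-out copies, RpL22-like, RpL37-2 and RpS5b, were called higher in both mutants. RpL22-like was under the floor on all control arrays and rose at least 44.5-fold in labelled comr and 45.2-fold in can, with control set to the floor. RpS5b rose by 1.26 in labelled comr and 1.80 in can. RpL37-2 rose by 1.69 in labelled comr and 2.14 in can, next to 1.47 in labelled comr and 1.54 in can for RpL37-1. Near-identical copies may share transcripts on such arrays, and their probes were not analysed here.

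Mitochondrial ribosomal protein genes rose in both mutants as well, and there labelled comr held the greater count. In labelled comr testes 48 of 64 were called higher (75%) and 0 lower, and in can testes 39 of 64 (60.9%) and 0 lower, to be read against the 28.9% (labelled comr) and 20.7% (can) called higher over all tested probe sets. By the adjusted p alone 63 were higher and 0 lower in labelled comr, and 61 were higher and 1 lower in can. Over all tested probe sets that rule gave 50.5% higher and 28.9% lower in labelled comr, and 47.2% and 23.9% in can. The 3 mutant arrays lay above the 3 control arrays for 62 genes in labelled comr and 60 in can, and below them for 0 in labelled comr and 2 in can. Such gaps were found over all tested probe sets upward for 50.9% and downward for 29.9% in labelled comr, and for 48.0% and 24.7% in can. The median log2 change was 1.32 in labelled comr (-0.24 to 2.49) and 1.17 in can (-0.37 to 2.44). The class was more uneven than the cytosolic class, with an interquartile range of 1.01 to 1.76 in labelled comr, against 0.78 to 1.23 for the cytosolic genes. Both subunits took part. Of 43 large subunit genes 33 were called higher in labelled comr and 28 in can, and of 21 small subunit genes 15 in labelled comr and 11 in can. With an offset of 64 in place of 16 the counts were 31 in labelled comr and 21 in can, as a larger offset shrinks the changes of dim probe sets. With each array centred on its median 24 genes were called higher in can, and the median change over all tested probe sets in can was 0.03. The shares called over all tested probe sets under these settings are not given here.

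**Figure D3:**
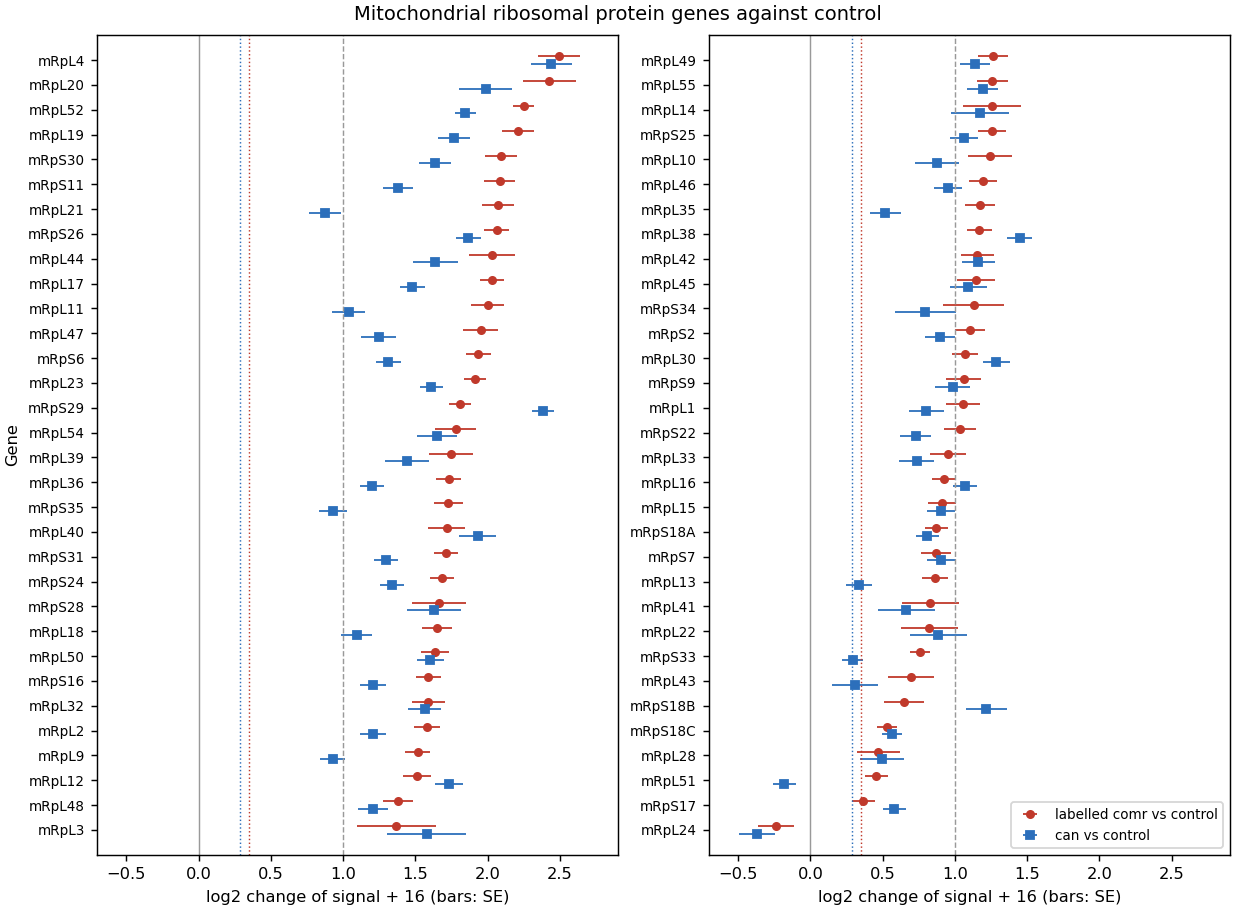
Each row is 1 of the 64 mitochondrial ribosomal protein genes, ordered by its change in labelled comr and continued in the right panel, with the log2 change of signal plus 16 against control on the x axis and bars of 1 standard error. Symbols and lines are as in the plot of the cytosolic genes. The changes run from 2.49 in labelled comr and 2.44 in can for mRpL4 to -0.24 in labelled comr and -0.37 in can for mRpL24, and for 50 of the 64 genes the circle of labelled comr lies right of the square of can.

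mRpL4, a large subunit protein with a bacterial counterpart, had the largest fitted change in both mutants, measured against control signals near the floor. Its signal was 159.4, 166.0 and 151.5 on labelled comr arrays, 137.2, 148.6 and 174.0 on can arrays, and 9.1, 21.1 and 16.2 on control arrays, so that 2 of the 3 control arrays were at or under the floor. The mutant arrays lay far above it, with log2 changes of 2.49 ± 0.14 (SE, adjusted p = 6.12e-09) in labelled comr and 2.44 ± 0.14 (SE, adjusted p = 1.33e-08) in can. When every signal under the floor was raised to it, an alternative added after seeing the data, the change of mRpL4 was 2.26 in labelled comr and 2.20 in can, and in can mRpS29 then stood above it at 2.38. mRpL20, likewise a large subunit protein with a bacterial counterpart, read 146.1, 146.1 and 125.4 on labelled comr arrays, 104.1, 102.8 and 88.1 on can arrays, and 8.0, 8.3 and 25.0 on control arrays, and 1 of its control arrays was above the floor. It changed by 2.43 in labelled comr and 1.99 in can, and by 2.03 in labelled comr and 1.59 in can with signals raised to the floor. mRpL44, a large subunit protein, read 110.9, 117.4 and 104.8 on labelled comr arrays, 70.0, 91.0 and 82.2 on can arrays, and 8.5, 21.8 and 16.4 on control arrays, so that here too 1 control array was above the floor. It changed by 2.03 in labelled comr and 1.64 in can, and by 1.79 in labelled comr and 1.39 in can with signals raised to the floor. For mRpL54 every control array was under the floor. It read 69.5, 68.8 and 71.1 on labelled comr arrays, 65.4, 69.6 and 53.4 on can arrays, and 7.7, 6.3 and 13.6 on control arrays, and was at least 3.44-fold higher in labelled comr and at least 3.07-fold higher in can, when control is set to the floor (adjusted p = 1.27e-07 and 3.79e-07).

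Among genes above the floor on all 9 arrays, mRpL52 had 442.7, 472.1 and 469.9 on labelled comr arrays, 346.2, 340.6 and 347.8 on can arrays, and 79.5, 87.0 and 86.7 on control arrays. It changed by 2.25 ± 0.074 (SE, adjusted p = 3.03e-11) in labelled comr and 1.85 ± 0.074 (SE, adjusted p = 6.06e-10) in can, and no groups overlapped. mRpL19 changed by 2.21 in labelled comr and 1.77 in can, and mRpS26 by 2.06 in labelled comr and 1.87 in can. mRpS30, named as a small subunit protein although its mammalian counterpart sits in the large subunit, changed by 2.09 in labelled comr and 1.64 in can. mRpL40 was among the 5 largest rises in can, at 1.93, next to 1.72 in labelled comr. The brightest mitochondrial members were mRpS29, mRpS16 and mRpS7. mRpS16, which has a bacterial counterpart, read 813 ± 45 on labelled comr, 620 ± 51 on can and 260 ± 25 on control arrays (SD, n = 3 each), and changed by 1.59 in labelled comr and 1.21 in can. mRpS7, a protein of the small subunit head, changed by 0.87 in labelled comr and 0.91 in can and was called in neither.

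A few mitochondrial genes stayed near their control level or below it. mRpL24, a large subunit protein with a bacterial counterpart, read 274.0, 327.6 and 221.1 on labelled comr arrays, 271.6, 227.1 and 243.4 on can arrays, and 297.2, 347.6 and 325.7 on control arrays. Labelled comr and control arrays overlapped, whereas all can arrays lay under all control arrays. The log2 change was -0.24 ± 0.13 (SE, adjusted p = 0.0965) in labelled comr and -0.37 ± 0.13 (SE, adjusted p = 0.0196) in can. mRpL51, a large subunit protein of mitochondria, read 680.2, 710.6 and 725.1 on labelled comr arrays, 473.8, 452.7 and 418.2 on can arrays, and 475.4, 500.1 and 556.0 on control arrays. It was above control on every labelled comr array and below it on every can array, with log2 changes of 0.46 ± 0.078 (SE, adjusted p = 0.000156) in labelled comr and -0.18 ± 0.078 (SE, adjusted p = 0.055) in can, the second of which did not pass the test. With each array centred on its median, 1 gene was lower in labelled comr and 2 were lower in can by the adjusted p. Over all tested probe sets 34.3% in labelled comr and 32.8% in can were then lower. With centring on the spiked controls none was lower in either, and mRpL24 lay above 0 in labelled comr. Lower by that rule were then 20.4% of all tested probe sets in labelled comr and 19.6% in can. mRpS17 changed by 0.36 in labelled comr and 0.58 in can, mRpL28 by 0.47 in labelled comr and 0.50 in can, mRpL13 by 0.86 in labelled comr and 0.34 in can, and mRpS33 by 0.76 in labelled comr and 0.29 in can, all past the adjusted p and short of 2-fold. mRpL43 did not pass it in can (0.31 ± 0.16, SE, adjusted p = 0.0981).

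The fly has 3 related genes for the mitochondrial counterparts of 1 bacterial small subunit protein, S18. mRpS18A changed by 0.87 in labelled comr and 0.81 in can, mRpS18B by 0.65 in labelled comr and 1.22 in can, and mRpS18C by 0.53 in labelled comr and 0.57 in can. Of these 6 values only that of mRpS18B in can reached 2-fold.

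**Figure D4:**
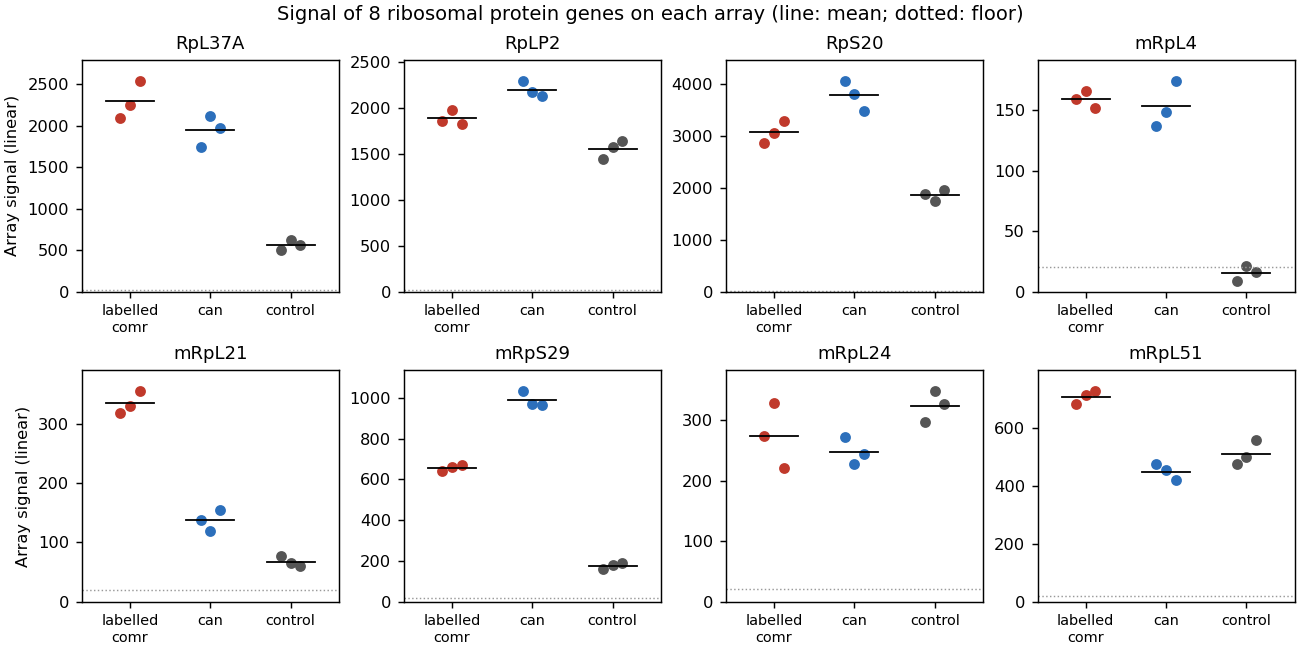
Signal of 8 ribosomal protein genes on a linear scale from 0, with 1 point per array, a line at the mean of each group of 3 and a dotted line at the floor of 20.3. RpL37A and mRpL4 have the largest fitted changes against control in each class, mRpL4 with control arrays near the floor, RpLP2 is the smallest cytosolic one, RpS20 is the brightest gene, mRpL21 and mRpS29 differ most between the mutants in either direction, and mRpL24 and mRpL51 are the 2 genes whose can arrays all lie below control.

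The 2 mutants were compared directly. At 2-fold 0 of 32 cytosolic genes and 1 of 64 mitochondrial genes were called, where over all tested probe sets 4.54% were higher and 10.3% lower in labelled comr. At an unadjusted limma p below 0.05, 21 cytosolic genes were lower and 2 higher in labelled comr than in can. Of the mitochondrial genes 6 were lower and 29 higher at this looser cut, and its share over all tested probe sets is not given here. By the adjusted p alone 19 cytosolic genes were lower in labelled comr than in can (59.4%) and 1 was higher (3.13%), whereas 23 mitochondrial genes were higher (35.9%) and 4 lower (6.25%). Over all tested probe sets 25.1% were higher and 24.1% lower by that rule. The labelled comr arrays lay below all can arrays for 21 cytosolic genes and above them for 1, and below them for 5 mitochondrial genes and above them for 35. Over all tested probe sets such a gap was found upward for 30.3% and downward for 28.8%. The median difference was -0.23 in the cytosolic class, with 30 of 32 genes below 0, and 0.21 in the mitochondrial class, with 50 of 64 above 0, where the median over all tested probe sets was -0.01.

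The direction of the cytosolic difference depended on the scale. With arrays centred on the spiked hybridisation controls the cytosolic median was 0.06, with 2 genes higher and 0 lower by the adjusted p. The mitochondrial median was 0.47, with 36 higher and 0 lower. Over all tested probe sets 33.1% were then higher and 14.6% lower by that rule, and the median was itself 0.22. With quantile normalisation the medians were -0.07 (cytosolic) and 0.25 (mitochondrial), and with median centring -0.15 (cytosolic) and 0.29 (mitochondrial). The gap between the classes did not turn. The cytosolic median minus the mitochondrial median was -0.44, and between -0.49 and -0.32 over the 25 alternatives run. Several of these, such as median centring, the replicate block and leaving out a control array, do not act on this gap. They left it at -0.44 and do not test it. Against control the same gap was -0.31 in labelled comr and 0.04 in can, and both of these changed sign under some alternatives, the one in can also to -0.02 without can replicate 1.

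**Figure D5:**
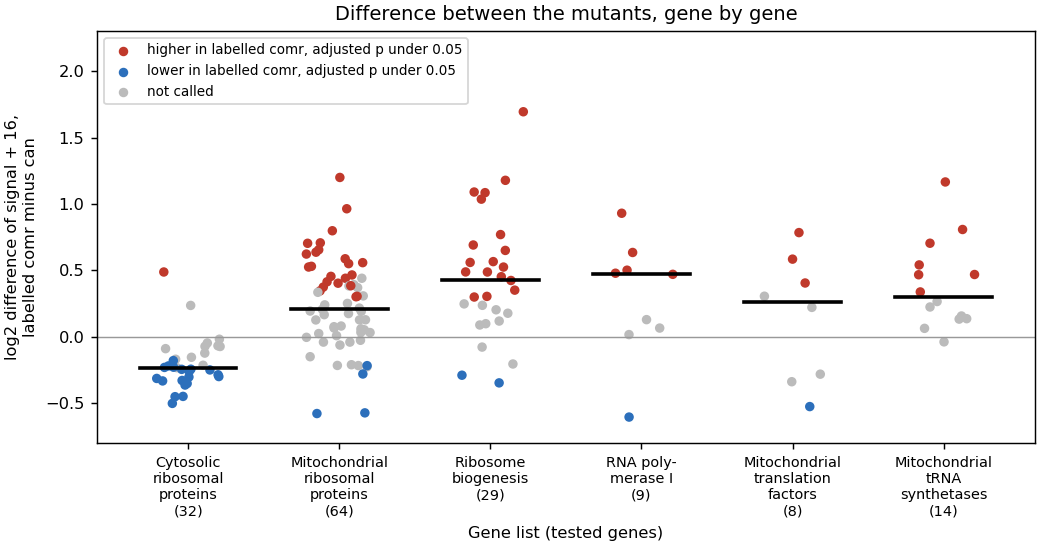
Each point is 1 gene, with the log2 difference of signal plus 16, labelled comr minus can, on the y axis and a bar at the median of each list. Red and blue points passed an adjusted p of 0.05 as higher or lower in labelled comr. The cytosolic genes lie mostly below 0, with a median of -0.23, and the mitochondrial ribosomal proteins (0.21), ribosome biogenesis genes (0.42) and RNA polymerase I subunits (0.47) mostly above it.

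mRpL21, a large subunit protein with a bacterial counterpart, was the single gene called at 2-fold, and 2 genes were called without labelled comr replicate 1, without labelled comr replicate 2 or without can replicate 3. It read 318.8, 330.5 and 355.0 on labelled comr arrays, 138.4, 118.7 and 154.8 on can arrays, and 76.7, 64.9 and 61.1 on control arrays. Every labelled comr array lay above every can array, and the difference was 1.20 ± 0.11 (SE, adjusted p = 1.9e-06). mRpL11, a protein at the base of the mitochondrial stalk, was the next, with 269.6, 269.9 and 341.1 on labelled comr arrays, 132.3, 135.7 and 158.6 on can arrays, and 55.8, 60.4 and 66.8 on control arrays and a difference of 0.96 ± 0.11 (SE, adjusted p = 1.92e-05). A dimmer probe set of mRpL11 gave 0.54 between the mutants. Against control it gave 0.29 in labelled comr (adjusted p = 0.0464) and -0.25 in can (adjusted p = 0.0852). The brighter probe set gave 2.00 in labelled comr and 1.04 in can against control. The 2 probe sets of this gene thus disagree on the size of its change in labelled comr and on its direction in can. mRpS35 differed by 0.80. The largest difference in the opposite direction was that of mRpS29, a GTP-binding small subunit protein that in mammals is also known as death associated protein 3. It read 640.6, 661.1 and 668.1 on labelled comr arrays, 1031.9, 969.5 and 962.4 on can arrays, and 159.0, 180.5 and 191.0 on control arrays. The groups were apart from one another, and labelled comr differed from can by -0.58 ± 0.076 (SE, adjusted p = 4.99e-05). mRpS18B (-0.57), mRpL38 (-0.28) and mRpS17 (-0.22) were the other mitochondrial genes lower in labelled comr.

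Among the cytosolic genes RpS10a differed by -0.50, RpL7-like by -0.45 and RpL28 by -0.45, all passing the adjusted p. The 1 gene that was higher in labelled comr was RpLP0-like, with 150.1, 161.3 and 167.4 on labelled comr arrays, 124.1, 99.2 and 105.3 on can arrays, and 45.8, 48.3 and 63.1 on control arrays and a difference of 0.49 ± 0.12 (SE, adjusted p = 0.00491). RpL37A was brighter by 0.24 and RpS29 differed by -0.02, and neither passed the test. Taken gene by gene over the 9 arrays, the order labelled comr, then can, then control held without overlap for 1 cytosolic and 33 mitochondrial genes, and the order can, then labelled comr, then control for 21 cytosolic and 5 mitochondrial genes. Over all tested probe sets the first order was found for 19.9% and the second for 6.28%. In the comparisons with control 15 cytosolic and 37 mitochondrial genes were called higher in both mutants, 1 cytosolic and 11 mitochondrial in labelled comr alone, 11 cytosolic and 2 mitochondrial in can alone, and 5 cytosolic and 14 mitochondrial in neither. Over all tested probe sets 17.4% were called higher in both, 11.5% in labelled comr alone, 3.37% in can alone and 67.7% in neither.

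Genes that work with the ribosomes were read beside them. Rack1, a scaffold protein of the cytosolic small subunit, was 1517 ± 151 on labelled comr, 1858 ± 75 on can and 821 ± 55 on control arrays (SD, n = 3 each), and differed between labelled comr and can by -0.29 ± 0.080 (SE, adjusted p = 0.00917). The mitochondrial small subunit proteins tko and bonsai were called higher in both mutants, tko by 1.96 in labelled comr and 1.75 in can and bonsai by 1.35 in labelled comr and 1.05 in can.

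Ribosome biogenesis genes, which process ribosomal RNA and assemble the subunits in the nucleolus, held 29 tested genes. Of these 23 were called higher in labelled comr (79.3%) and 10 in can (34.5%), with 0 lower in either, where over all tested probe sets 28.9% were called higher in labelled comr and 20.7% in can. The medians were 1.37 in labelled comr and 0.81 in can. Between the mutants 18 were higher in labelled comr and 2 lower by the adjusted p, against 25.1% higher and 24.1% lower over all tested probe sets, with a median of 0.42. The count of higher genes was 18 with quantile normalisation, 20 with median centring and 21 with spiked control centring. The share higher over all tested probe sets moved too, to 27.7% with quantile normalisation, 29.2% with median centring and 33.1% with spiked control centring. Non1, whose yeast counterpart is a nucleolar GTPase of large subunit assembly, read 498.1, 493.4 and 530.1 on labelled comr arrays, 391.2, 372.3 and 358.4 on can arrays, and 116.9, 109.1 and 118.1 on control arrays, and its changes were 2.00 in labelled comr and 1.58 in can. CG1785 changed by 2.14 in labelled comr and 1.06 in can. l(3)72Dn read 81.7, 78.3 and 83.8 on labelled comr arrays, 17.9, 11.8 and 12.8 on can arrays, and 1.8, 3.4 and 2.1 on control arrays, with can and control arrays all under the floor, and was at least 4.0-fold higher in labelled comr than in either. The 2 genes that were lower in labelled comr than in can were eIF6, which keeps the new large subunit from joining the small one, and Nlp, a nucleoplasmin-like protein, by -0.35 and -0.29. They are given because they are the exceptions and were chosen after their values were seen.

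RNA polymerase I makes ribosomal RNA, and 7 of its 9 tested subunit genes were called higher in labelled comr (77.8%) and 4 in can (44.4%), some of them shared with the other polymerases. The median was 1.48 in labelled comr and 1.00 in can, and 0.47 between them. Polr1A, the largest subunit, read 350.6, 282.1 and 372.9 on labelled comr arrays, 206.7, 195.3 and 225.2 on can arrays, and 45.3, 40.5 and 31.4 on control arrays, and changed by 2.67 in labelled comr and 2.04 in can. Of 8 mitochondrial translation factors 4 were called higher (50%) and 1 lower in labelled comr, and 2 higher (25%) and 2 lower in can. The shares over all tested probe sets, for these lists as well, were 28.9% higher and 16.7% lower in labelled comr and 20.7% higher and 13.0% lower in can, so the share of higher translation factors in can was near that of all probe sets. Of the elongation factor Tu genes mEFTu1 rose by 2.05 in labelled comr and 1.83 in can, and mEFTu2 read 129.2, 153.9 and 148.4 on labelled comr arrays, 230.7, 183.0 and 230.1 on can arrays, and 995.3, 1025.4 and 982.6 on control arrays, so that on the log2 scale it fell by 2.67 in labelled comr and fell by 2.15 in can. mEFTs, the exchange factor of Tu, changed by -0.63 in labelled comr and -1.42 in can. Among 14 tested aminoacyl tRNA synthetase genes of mitochondria, 3 of which (HisRS, GlyRS and LysRS) also serve the cytosol, 10 were called higher (71.4%) and 1 lower in labelled comr and 6 higher (42.9%) and 2 lower in can. AspRS-m rose by 2.29 in labelled comr and 1.75 in can, whereas CysRS-m fell by 2.10 in labelled comr and 2.07 in can.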

How the data were processed

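The authors deposited a linear intensity per probe set, for which the submitters' processing notes name GCOS 1.4, while the sources used here name no algorithm. With the lowest and highest 2% trimmed, each array's mean was 100, so arrays had been scaled to a common level. Of 14010 probe sets 44 controls were left out of the tests. Symbols and chromosome arms were taken from the platform annotation, updated through a current gene table.

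Here 16 was added to each signal before taking log2. Ranked by mean signal over the 9 arrays, the dimmest 30% of probe sets were dropped, leaving 9778 with a mean of at least 15.1. limma 3.58.1 in R 4.3.3 was fitted with 1 coefficient per group over all 9 arrays, an intensity trend and two-sided tests, with Benjamini-Hochberg adjustment over all tested probe sets, and was tested on simulated data. Precision is limited by having 3 arrays in each group.

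The members, lists and the naming rule were chosen with earlier results of these data known. Named were the 5 largest and 5 smallest changes per class against control, the 3 largest each way between the mutants, the 3 brightest per class, gene copies and up to 3 genes of each other list, and other genes were picked with their values in view. No list was given a test. The replicate numbers are not said to mark a shared day, and the main fit did not pair arrays by them. Over the 9 same-numbered pairs the correlations of deviations from the group means ran from -0.14 to 0.19, with 4 above 0.1. These values cannot decide whether same-numbered arrays shared a day. Alternatives changed the offset, filter, scaling, spread model, call rule, probe set, arrays and block, and leaving out the arrays with most accessory gland signal, leaving out the 3 -like genes and raising signals to the floor were chosen after seeing the data. Probe, promoter and protein sequences were not analysed here.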

Additional observations from a re-analysis of the deposited data

How the results depend on the processing

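The cytosolic count in labelled comr against control (16) was 25 with quantile normalisation, 10 with array median centring, 29 with spiked control centring, 32 with no minimum fold and 1 at 4-fold, and in can (26) it was 15 with median centring and 0 at 4-fold. The mitochondrial count in labelled comr (48) was 31 with an offset of 64 and 11 at 4-fold, and in can (39) it was 21 with an offset of 64, 24 with median centring, 62 with no minimum fold and 2 at 4-fold. Between the mutants 20 cytosolic and 27 mitochondrial genes were called with no minimum fold. The mitochondrial count (1) was 2 with an offset of 1, with median centring or without the arrays with most accessory gland signal. It was 3 with spiked control centring, and 0 with an offset of 64 or at 4-fold. These counts have no share over all tested probe sets beside them.

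The cytosolic minus the mitochondrial median change (-0.31 in labelled comr) was -0.549 with an offset of 1, -0.011 with an offset of 64 and 0.225 with quantile normalisation. In can (0.04) it was -0.055 with an offset of 1, 0.251 with an offset of 64 and 0.394 with quantile normalisation. Between the mutants (-0.44) it was -0.32 with quantile normalisation. Leaving out each array in turn gave 14 to 17 cytosolic and 47 to 48 mitochondrial genes in labelled comr, 20 to 27 cytosolic and 39 to 40 mitochondrial genes in can, and 0 cytosolic and 1 to 2 mitochondrial genes between the mutants. The gap between the class medians was then -0.38 to -0.28 in labelled comr, -0.021 to 0.091 in can and -0.49 to -0.43 between the mutants, and the gap in can was below 0 only without can replicate 1 among these. The cause of these changes was not tested, other than that a higher offset shrinks changes of dim probe sets and a call rule sets its own count.

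The replicate block left the counts at 16 cytosolic and 48 mitochondrial genes in labelled comr, 26 and 39 in can, and 0 and 1 between the mutants, with none of 135 results changed. In this balanced design the block leaves each fitted change as it was and can move only its p-value. The class medians therefore could not change, and the count of unchanged results says little about pairing. Of 3150 comparisons of 126 values of named genes with an alternative, 2976 kept direction and call, 102 gained and 71 lost the call, and 1 reversed, mRpL11 in can against control at -0.25 with the dimmer probe set. Some of these alternatives, the block among them, could not change a direction. The median change over all tested probe sets in labelled comr (0.35) was 0.16 with median centring and 0.67 with spiked control centring, and in can (0.29) it was 0.03 with median centring and 0.37 with spiked control centring, so every rise is relative to the scaling chosen. The 8 mitochondrial genes with a control array at or under the floor were mRpL3, mRpL4, mRpL14, mRpL20, mRpL22, mRpL41, mRpL44 and mRpL54, and raising every signal under the floor to it left the cytosolic and mitochondrial counts as they were in each comparison.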

Other observations

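The mitochondrial ribosomal protein genes were also counted by chromosome arm. On 3L 15 of 16 were called higher in labelled comr and 11 in can, on 3R 15 of 18 in labelled comr and 10 in can, on 2R 7 of 10 in labelled comr and 7 in can, on X 7 of 10 in labelled comr and 8 in can, and on 2L 4 of 10 in labelled comr and 3 in can. The shares called higher over all tested probe sets of an arm ran from 24.5% (X) to 30.9% (3L) in labelled comr and from 19.2% (3L) to 21.3% (2R) in can. The median log2 change was 1.73 in labelled comr and 1.30 in can on 3L, and 0.86 in labelled comr and 0.88 in can on 2L, where mRpL24 and mRpL51 lie. Of the cytosolic genes 6 of 8 on 2L were called higher in labelled comr and 8 of 8 in can. These counts were chosen after the values were seen and carry no test.

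The median coefficient of variation among replicate arrays was 6.81% in the cytosolic and 7.83% in the mitochondrial class.

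mRpL12, the mitochondrial counterpart of the bacterial stalk protein, was read by a second probe set as well. The brighter one changed by 1.51 in labelled comr and 1.74 in can, and the dimmer one, with signals between 12.6 and 69.5 over the 9 arrays, by 0.43 ± 0.30 in labelled comr and 0.40 ± 0.30 in can (SE), neither of which passed the test.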
